A study of Mus musculus with 146 samples.

Results

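The nuclear oxidative phosphorylation genes were described across macrophage cultures from outbred mice. They were taken by symbol: protein-coding genes of the variance-stabilised expression table beginning with 1 of 12 prefixes (Ndufa, Ndufb, Ndufc, Ndufs, Ndufv, Uqcr, Cox4, Cox5, Cox6, Cox7, Cox8, Atp5), or named Sdha, Sdhb, Sdhc or Sdhd. This gave 87 genes of the 10691 protein-coding genes in that table. Of these, 77 encode subunits: 35 of complex I, 4 of complex II, 8 of complex III, 14 of complex IV and 16 of complex V. The other 10 are factors that share the prefixes: 8 complex I assembly factors (Ndufaf genes), Cox7a2l, which joins complexes III and IV into supercomplexes, and Atp5s, a factor related to ATP synthase.

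Complexes I to IV of the inner mitochondrial membrane pass electrons from NADH and succinate to oxygen and, except for complex II, pump protons across the membrane; complex V uses the returning protons to make ATP. Most subunits are encoded in the nucleus, translated in the cytosol and imported, while a core set is encoded by mitochondrial DNA and made on mitochondrial ribosomes. In macrophages the balance between oxidative phosphorylation and glycolysis is known to differ between activation states.

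The samples were RNA-seq libraries of bone marrow-derived macrophages, 1 per mouse, from 86 female and 60 male mice of the stock Crl:CFW(SW)-US_P08 (CFW), aged 16 weeks. All cultures were grown for 5 days in medium containing L929-conditioned medium, a source of colony-stimulating factor 1, and none received a treatment. Libraries carried labels of 7 plates (6 to 24 libraries each), a lane and a date of collection (28 distinct labels). The study related macrophage co-expression networks to wound healing and genotype; those measurements were not analysed here, so the comparisons are those the labels allow: level and spread over libraries, sex, plate, and covariation.

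The 87 genes held 0.594% to 0.902% of each library's counts (median 0.730%), and library totals ran from 14483441 to 120926429 counts with a median of 43815187. No 2 libraries had identical counts. The 8 macrophage markers summed to 11765 to 25419 CPM (read counts scaled to the library total) per library, against 179 to 1866 CPM for 14 granulocyte precursor genes, 15.2 to 126 CPM for 5 dendritic cell genes and 1.49 to 71.7 CPM for 5 stromal genes. The lists for erythroid, B, T and NK, mast and basophil, and megakaryocytic cells each summed to at most 12.1 CPM. In bulk cultures, fewer cells of a type and less RNA per cell cannot be told apart. Y-linked counts went against the sex label in 6 libraries (4 labelled female, 2 labelled male), and the sex results are given with and without them. All 13 mtDNA-encoded protein genes were listed with 0 counts in every library, so nuclear and mitochondrial subunits could not be compared.

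RefSeq promoter windows (build GRCm38.p6, 250 bases before and 50 from the transcript start) were found for 72 of the 87 genes; those with no window included Atp5a1, Atp5mpl, Cox4i1, Cox4i2, Cox6a2, Cox6c, Ndufa2, Ndufaf6, Ndufb9, Ndufs1, Sdhc, Uqcrb, Uqcrc2 and Uqcrq. They were searched on both strands for motifs of 4 factors known to act on respiratory genes. The NRF1 site, searched as GCGC, any base and then TGCGC, was present in 18 of the 72 genes (25.0%), against 12.6% of 8595 genes of the expression table with a window and 5.19% of all 27025 genes with one. CCGGAAG, read by ETS factors such as GABPA, was also present in 18 (25.0%, against 22.2% and 9.93%). AAGATGGCG, a site of YY1, was in 8 (11.1%, against 3.99% and 1.64%), and CAAGGTCA, a site of ESRRA, in 4 (5.56%, against 1.29% and 1.76%). At least 1 motif was present in 37 of the 72 genes and at least 2 in 10. These counts were not made over other genes, so they have no background. The stretches below end at the base before the start and show subunits of complexes I, II, IV and V; capitals mark the motifs, on either strand.
Ndufs5, chr4:123718187-123718306, minus strand, with an NRF1 motif: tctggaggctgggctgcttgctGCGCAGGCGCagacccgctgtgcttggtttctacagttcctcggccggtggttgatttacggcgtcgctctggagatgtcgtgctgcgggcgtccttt
Sdhd, chr9:50603850-50603969, minus strand, with an NRF1 and an ETS motif: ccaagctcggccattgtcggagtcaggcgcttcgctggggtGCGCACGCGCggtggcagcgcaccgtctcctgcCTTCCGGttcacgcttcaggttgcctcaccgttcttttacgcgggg
Cox6a1, chr5:115348959-115349128, minus strand, with a pair of NRF1 motifs and an ETS motif: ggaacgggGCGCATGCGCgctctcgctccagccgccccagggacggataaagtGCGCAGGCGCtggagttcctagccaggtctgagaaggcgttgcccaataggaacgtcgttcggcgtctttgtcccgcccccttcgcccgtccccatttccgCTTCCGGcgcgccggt
Atp5g3, chr2:73911327-73911446, minus strand, with an ESRRA motif: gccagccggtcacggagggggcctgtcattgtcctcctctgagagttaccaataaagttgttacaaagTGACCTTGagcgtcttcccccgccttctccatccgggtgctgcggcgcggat
Atp5j, chr16:84834977-84835096, minus strand, with a YY1 and an ETS motif: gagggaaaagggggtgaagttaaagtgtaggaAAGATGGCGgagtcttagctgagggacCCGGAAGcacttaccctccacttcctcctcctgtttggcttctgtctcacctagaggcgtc
A match describes these letters only; binding was not measured.

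Levels differed widely between the genes. They were compared as CPM per kilobase of the principal mRNA, mean over 146 libraries. The median gene stood at 59.2 CPM per kb; 23 genes lay at 100 or more and 7 under 5. The highest were Atp5b, the catalytic beta subunit of ATP synthase, at 449 ± 61.7 CPM per kb (SD, n = 146), Cox4i1, the ubiquitous cytochrome c oxidase subunit 4, at 360 ± 28.4, and Atp5a1, the ATP synthase alpha subunit, at 332 ± 27.4. By complex the medians were 55.7 CPM per kb for I, 91.0 for II, 83.7 for III, 143 for IV and 119 for V, against 8.52 for the 10 factors.

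**Figure D1:**
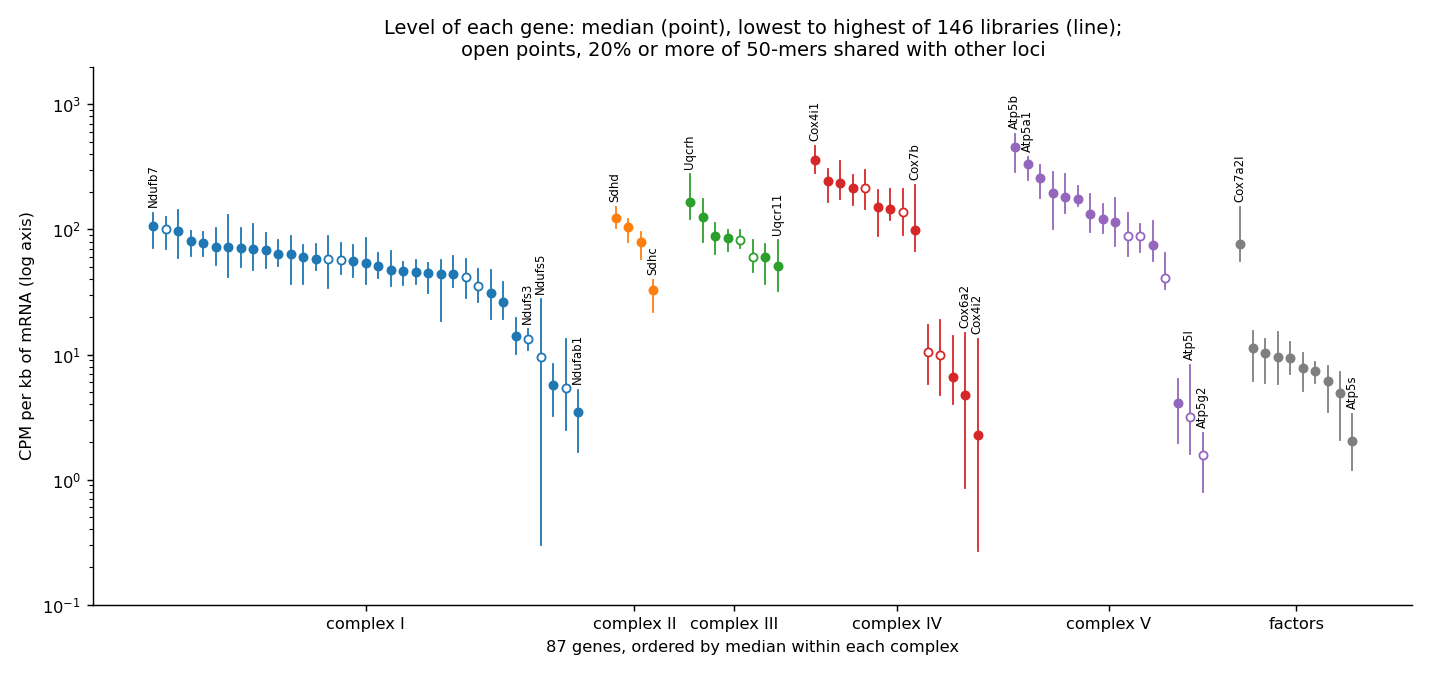
Level of each of the 87 genes in CPM per kb of mRNA (log axis), ordered by median within each complex; points are medians and lines run from the lowest to the highest of 146 libraries. Complex IV and V genes reach the highest levels, up to 449 CPM per kb on average for Atp5b, while Ndufs5, Cox4i2 and Cox6a2 have the longest lines.

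In complex I, Ndufs3 was the lowest of the catalytic core genes at 13.2 ± 1.19 CPM per kb, and Ndufs8, which carries iron-sulphur clusters, stood at 73.1 ± 8.56. The supernumerary subunits, which surround the core, ranged from 3.41 ± 0.588 for Ndufab1, the mitochondrial acyl carrier protein, to 106 ± 12.1 for Ndufb7. Complex II ran from 32.1 ± 3.54 for Sdhc to 123 ± 8.02 for Sdhd, which together anchor the enzyme in the membrane. Complex III ran from 52.7 ± 8.46 for Uqcr11 to 171 ± 28.7 for Uqcrh, the hinge protein that contacts cytochrome c1. Among F1 genes of complex V, Atp5d was lowest at 124 ± 12.8, whereas the stalk and Fo genes spread from 1.56 ± 0.338 for Atp5g2 to 254 ± 26.8 for Atp5g3. Atp5g1, Atp5g2 and Atp5g3 encode the same mature c subunit, and Atp5g1 stood at 4.07 ± 0.833. Of the 3, Atp5g3 was thus by far the highest, with the limit on Atp5g2 given next.

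Some low values belong to genes whose sequence recurs elsewhere in the genome. Among the 87 genes, 19 share 20% or more of the 50-base words of their mRNA with other loci, and these had a median of 42.8 CPM per kb against 66.9 for the other 68. Atp5g2 shares 88.9% of its words, Atp5l (a membrane subunit of ATP synthase, 3.38 ± 1.09 CPM per kb) 85.3%, Atp5h 58.9%, Cox7c 55.9%, Ndufs3 45.4% and Ndufs5 32.4%. How the authors' counting treated reads with several matches is not given in the sources used here, and levels of these genes are uncertain. Of 93 protein-coding genes with the prefixes or names in the count table, 6 were outside the expression table. Ndufb4, a complex I subunit with 38.1% shared words, averaged 0.932 CPM there.

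Complex IV subunits that have tissue-specific forms were read mainly from the ubiquitous form. Cox4i2, the lung and hypoxia form of subunit 4, stood at 2.92 ± 2.37 CPM per kb (SD, n = 146) beside 360 for Cox4i1. The muscle and heart form Cox6a2 stood at 5.64 ± 2.88 beside 212 ± 20.8 for Cox6a1, and Cox7a1 at 6.82 ± 1.60 beside 147 ± 14.5 for Cox7a2. The testis form Cox6b2 averaged 0.535 CPM, Ndufa4l2, a hypoxia-induced relative of Ndufa4, 0.0710 CPM, and Cox8c 1 count in 1 of 146 libraries. Cox8b and Cox7b2 had 0 counts in every library.

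Most of the genes varied little between mice. The SD of log2 variance-stabilised values had a median of 0.16 over the 87 genes and 0.18 over the 10893 genes of the table. The fold between each gene's 90th and 10th percentile of CPM over libraries had medians of 1.34 and 1.41. Complex IV varied most among the complexes (median SD 0.20, 14 genes) and complex II least (0.12, 4 genes). Complex IV includes the low forms Cox4i2, Cox6a2 and Cox7a1 (means 2.14, 3.84 and 2.68 CPM), whose part in this order was not tested. Sdhd had the smallest SD of the set (0.084) and ran from 127 to 185 CPM with a median of 152. Uqcrc2, a core subunit of complex III, followed with 0.086 and ran from 134 to 189 CPM with a median of 157. Collection date accounted for a median of 42.2% of the variance of the 87 genes and 40.2% for all genes, and plate for 20.5% and 15.6%. These shares were not adjusted for the number of labels, 28 for date and 7 for plate, so date and plate cannot be compared by them.

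Ndufs5, an accessory subunit of complex I (ENSMUSG00000028648, chr4:123712710-123718202, minus strand, GRCm38), was by far the most variable. In 57 libraries it lay between 0.205 and 0.850 CPM (median 0.442), in 70 between 5.30 and 9.70 (median 7.50), and in 18 between 12.8 and 18.8 (median 15.0). The remaining library, a male, lay between the lower levels at 2.64 CPM. The levels were cut at gaps of the sorted values (over 0.35 in log2), so that they do not overlap is given by the cut. Each contained both sexes: 37 females and 20 males in the lowest, 41 and 29 in the middle, 8 and 10 in the highest. Every plate held libraries both below and above the gap, from 1 of 6 below on plate 1 to 13 of 24 on plate 10. No gene of the table followed Ndufs5: its closest partner reached a Pearson r of -0.268 over 146 libraries, and its median rho with other complex I genes was 0.027. The share of repeated sequence in its mRNA is given above, and the part this plays in the levels was not tested.

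Cox7b (ENSMUSG00000031231, chrX:106015700-106022450, plus strand), a small X-linked subunit of cytochrome c oxidase, also fell into separate levels. In 131 libraries it ran from 67.7 to 122 CPM with a median of 96.6. The other 15 libraries were 11 females between 144 and 178 CPM (median 157) and 4 males between 199 and 226 CPM (median 210). The 15 were parted from the 131 at the largest gap of the values, so only the order of the high females and males is not set by the cut. All high females lay below the high males. Of the 15, 1 was a library whose Y-linked counts go against its label. High libraries occurred on all 7 plates. The closest partner of Cox7b was its neighbour Magt1, a magnesium transporter gene whose start lies 47.6 kb away, with a Pearson r of 0.757 over 146 libraries. Magt1 ran from 118 to 233 CPM (median 174) in the 131 libraries, from 168 to 271 (median 232) in the 11 females and from 219 to 302 (median 281) in the 4 males, so its levels overlapped.

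**Figure D2:**
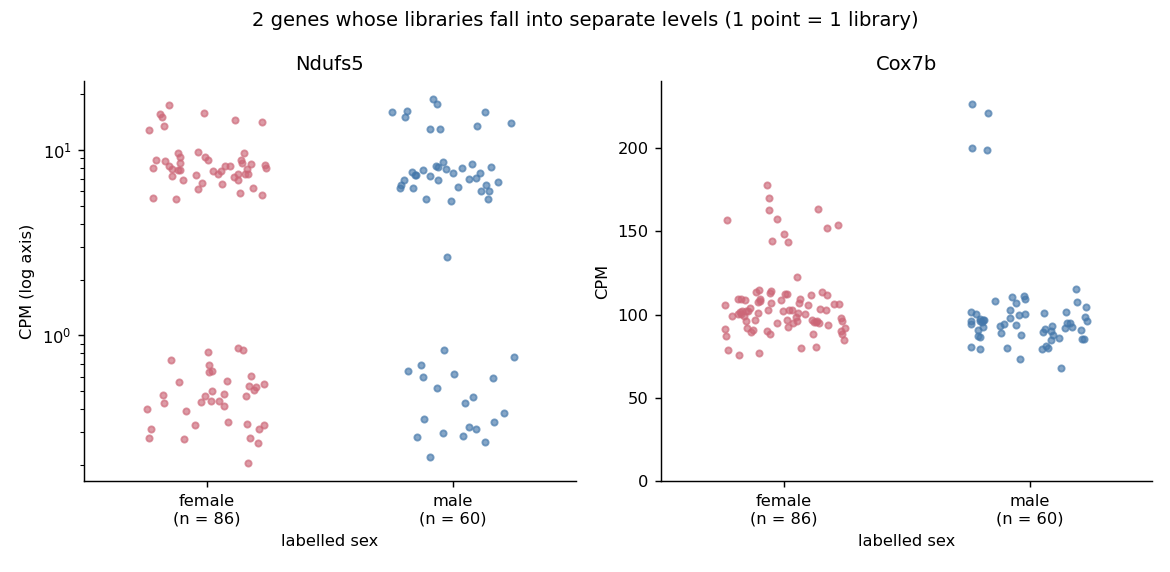
CPM of Ndufs5 (left, log axis) and Cox7b (right, linear axis) in 86 female and 60 male libraries; each point is 1 library, spread sideways for visibility. Ndufs5 shows levels around 0.442, 7.50 and 15.0 CPM in both sexes, and Cox7b shows 11 females above 143 CPM and 4 males above 198 CPM.

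Cox4i2 and Cox6a2 varied without such gaps. Cox4i2 (chr2:152754173-152765037, plus strand) ran from 0.199 to 9.77 CPM with a median of 1.66, and its 90th percentile was 7.76 times its 10th. Cox6a2 (chr7:128205435-128206387, minus strand) ran from 0.587 to 10.1 CPM with a median of 3.24 and a ratio of 3.60. Cox7a1 ran from 1.58 to 5.52 CPM with a median of 2.61. Cox4i2 was followed most closely by Gm1840 (Pearson r 0.843), the glycolytic enzyme gene Gpi1 (0.836) and Bsg (0.834), which encodes the partner of lactate transporters.

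Sex was tested with edgeR's quasi-likelihood test with plate as a covariate, adjusted over 12060 genes. With it, 5.02% of all genes passed an adjusted p of 0.05 (2.17% higher in males, 2.84% higher in females). Of the 87 genes, 1 was higher in males and 2 were higher in females. The log2 difference, male minus female, was negative for 68 of 87, with a median of -0.025 against 0.0015 over all genes tested. The share of negative differences over all genes was not counted. The 87 genes covary (median rho 0.239, below), so their signs are not separate results. An unadjusted p under 0.05 was reached by 16 of the 87, and by 2412 of the 12060 genes tested (20%).

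Cox6a2 ranged in females from 0.959 to 9.08 CPM (median 2.98) and in males from 0.587 to 10.1 CPM (median 4.78). The ranges overlapped widely, with means of 3.29 ± 1.61 (SD, n = 86) and 4.62 ± 2.15 (SD, n = 60). The log2 difference was 0.45 (SE 0.11, edgeR adjusted p = 0.0079), falling to 0.37 with an adjusted p of 0.0568 when collection date replaced plate. Uqcrc1, a core subunit of complex III, ranged from 109 to 186 CPM in females (median 150) and from 105 to 165 in males (median 140). Its log2 difference was -0.084 (SE 0.023, edgeR adjusted p = 0.015). The ranges of Uqcrc1 overlapped too, and its difference was smaller than the spread within a sex.

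Without the 6 libraries that go against their label, 8 of the 87 genes passed (1 higher in males, 7 in females), while the share of all genes rose to 7.69%. With lane within plate as a covariate there were 10 (1 and 9; all genes 7.86%). The X-linked genes did not pass. Cox7b differed by -0.074 (SE 0.053, edgeR adjusted p = 0.45), Ndufa1, which is needed for complex I assembly, by 0.020 (SE 0.029, adjusted p = 0.74), and Ndufb11, also of complex I, by -0.0026 (SE 0.024, adjusted p = 0.96). No gene of the set passed edgeR's test for a sex difference that varies with plate (0 of 87, and 0 at an unadjusted p under 0.05). Only 0.0415% of all genes passed, so the test does not show that sex differences were equal on every plate.

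Plate differences were present in 81 of 87 genes (edgeR's quasi-likelihood test over the plate coefficients), in a background of 74.8% of all genes. With collection date as a further covariate, 15 of 87 passed (all genes 11.0%). Most date labels occur on a single plate, so that fit compares plates only through shared dates and cannot tell date from plate. The 6 genes with the smallest p were Cox6c, Uqcr11, Sdhc, Atp5l, Cox4i1 and Ndufa7. Cox6c, a small subunit of complex IV, had means of 52.9 ± 4.87 CPM on plate 1 (SD, n = 6) and 80.4 ± 8.83 on plate 10 (SD, n = 24), with the others between 66.4 and 70.1. Plate 10 also had the highest mean of Uqcr11 (28.3 ± 3.17 CPM, others 20.4 to 24.8), Cox4i1 (295 ± 21.1, others 249 to 286) and Ndufa7 (37.7 ± 4.25, others 25.1 to 31.7), and the lowest of Sdhc (85.6 ± 8.08, others 99.0 to 109). Atp5l stood apart on plate 1 (3.75 ± 0.597 CPM, others 1.60 to 2.20).

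For covariation, plate and sex were removed from the variance-stabilised values. Over 3741 pairs of the 87 genes the median Spearman rho across 146 libraries was 0.239, against -0.0016 over all gene pairs of the table, and 2950 pairs were positive. Within the 6 plates of 22 or more libraries the median ran from 0.172 to 0.374; plate 1 had too few libraries for a value. Without the 2 libraries with the most extreme mean of the subunit genes (female 6 on plate 10 and male 42 on plate 7) it was 0.218.

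Pairs within and between complexes had similar medians. Subunit pairs within a complex had a median rho of 0.280 (840 pairs) and pairs between complexes 0.260 (2086 pairs). By complex the medians were 0.301 for I, 0.334 for II, 0.159 for III, 0.190 for IV and 0.233 for V. Pairs between I and II stood at 0.367 and pairs among the 10 factors at 0.057. The genes nearest to their own complex were Atp5j2 (median rho 0.543 with other complex V genes), Ndufb9 (0.508 in complex I), Atp5g3 (0.485) and Ndufa11 (0.482).

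**Figure D3:**
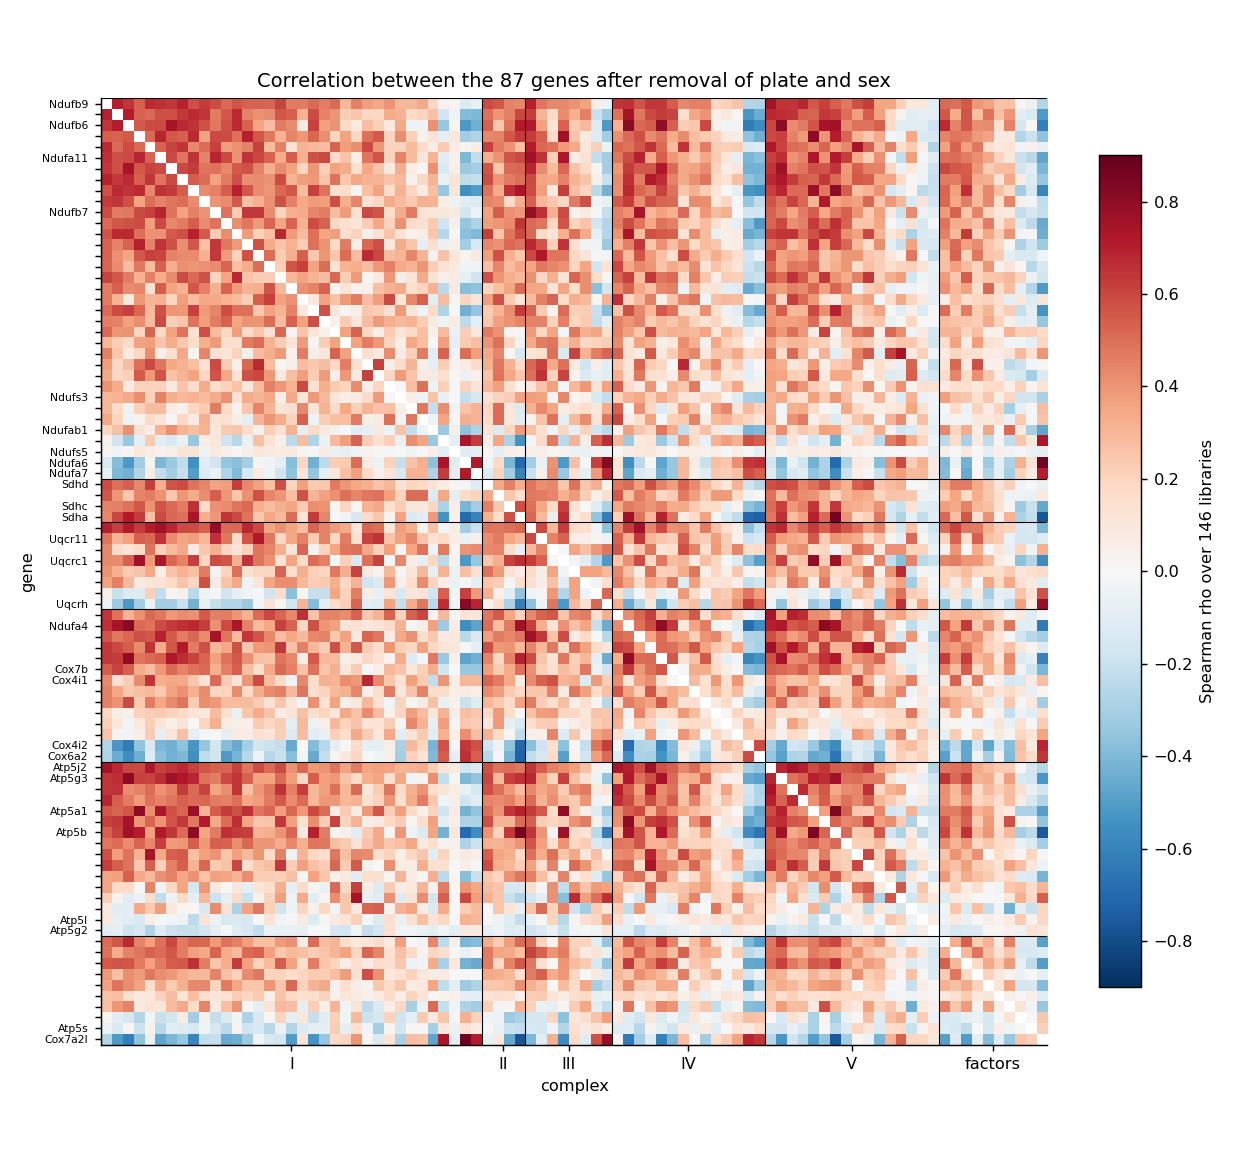
Spearman rho between the 87 genes over 146 libraries after removal of plate and sex, grouped by complex and ordered within it by the median rho with subunit genes; a subset of rows is labelled. Red blocks extend across complexes, and the rows of Ndufa6, Ndufa7, Uqcrh, Cox4i2, Cox6a2 and Cox7a2l are blue against most others and red against each other.

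The highest pairs lay both between and within complexes. Ndufa6, a supernumerary complex I subunit, and the supercomplex factor gene Cox7a2l had a rho of 0.876, Sdha (the flavoprotein of complex II) and Atp5b 0.858, and Atp5b and Atp5a1, both of complex V, 0.837. Ndufa6 with Uqcrh followed at 0.816, and Ndufa4, a small subunit of complex IV, with Ndufb6 of complex I at 0.814. The lowest were Sdha with Cox7a2l (-0.770), Cox7a2l with Atp5b (-0.755), Sdha with Cox6a2 (-0.725), Sdha with Cox4i2 (-0.709) and Sdha with Ndufa6 (-0.703). Strongly negative pairs also occurred within a complex: Cox4i2 and Ndufa4, both of complex IV, had a rho of -0.682.

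Partners outside the set were ranked by Pearson r with the mean z score of the 77 subunit genes over 146 libraries. The highest was Nedd8, a ubiquitin-like modifier, at 0.836 (Spearman 0.792). The proteasome genes Psma2 (0.817), Psmb7 (0.778) and Psmb4 (0.750) and the proteasome assembly factor gene Pomp (0.779) were also among the 12 highest. So were Uqcc2, a complex III assembly factor (0.764), Elob, elongin B (0.761), and Park7, an oxidative stress protein (0.759). The others were Snrpd2 of the spliceosome (0.745), Mrpl13 of the mitochondrial ribosome (0.736), Gtf2h5 of the transcription factor TFIIH (0.731) and Hint1 (0.731). Without the 2 most extreme libraries these 12 values lay between 0.670 and 0.798.
The lowest were Atf7 (-0.803), Phc3 (-0.732), Kmt2c (-0.731), Atxn7 (-0.725), Ino80d (-0.708), Pogz (-0.694), Kat6a (-0.683), Srcap (-0.682), Chd6 (-0.682), Ubn2 (-0.672), Dido1 (-0.665) and Rnf111 (-0.662). Atf7 encodes a transcription factor, Kmt2c a histone methyltransferase, Kat6a a histone acetyltransferase and Chd6 a chromatin remodeller. For all 24 genes the sign was the same within each of the 6 larger plates. The 24 were chosen by r over these same libraries, so this is no separate test of them.

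Transcript length moved with the same axis. The subunit mean had a Pearson r of -0.758 (Spearman -0.714, n = 146) with each library's slope of expression on mRNA length, fitted on the other genes, and -0.725 without the 2 most extreme libraries. The 87 genes had a median mRNA of 861 bases, against 2968 for all annotated genes of the table, 1172 for the 12 positive partners and 9814 for the 12 negative ones. After the slopes on length and GC content were removed, the median rho among the 87 genes was 0.132. Nedd8 then had an r of 0.799, Psmb7 0.753, Atf7 -0.565 and Phc3 -0.352. The length of sequenced fragments and RNA quality per library were not analysed here, and their part in the result was not tested.

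**Figure D4:**
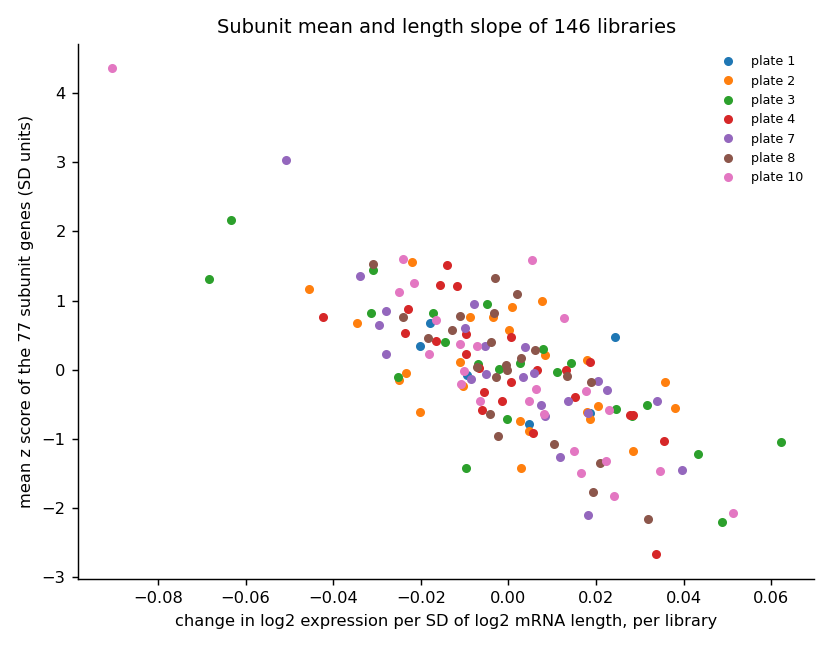
Mean z score of the 77 subunit genes (SD units) against the change in log2 expression per SD of log2 mRNA length in each of 146 libraries, coloured by plate. The points fall from upper left to lower right (Pearson r -0.758), with female 6 of plate 10 at the upper left end.

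Other mitochondrial genes shared the axis to different degrees, given as Pearson r with the subunit mean. All 15 electron carrier and related genes were positive (median 0.422), from Coq2 of ubiquinone synthesis (0.149) to Etfb, the electron transfer flavoprotein subunit (0.653); Cyc1, the cytochrome c1 gene of complex III, had 0.536 and Cycs, cytochrome c, 0.179. All 15 were positive also after removal of each library's length and GC slopes (median 0.511). The list of ADP/ATP and phosphate carriers also held Vdac1, Vdac2, Vdac3, Atpif1 and Ucp2. All 8 of its genes were positive (median 0.460), led by Slc25a5, an ADP/ATP translocase (0.703). After removal of the length and GC slopes 6 were (median 0.303), with Atpif1 at -0.079 and Vdac1 at -0.047. The tricarboxylic acid (TCA) cycle list included the pyruvate dehydrogenase complex genes Pdha1, Pdhb, Dlat and Pdhx. All its 17 genes were positive (median 0.406), from Dlst (0.101) to Fh1, fumarase (0.658). After removal of the length and GC slopes 13 of the 17 were positive (median 0.548), with Pdhb, Idh3g, Dlst and Suclg2 between -0.182 and -0.012. Among 42 assembly factors outside the set, 33 were positive (median 0.165), from Tmem186 (-0.343) to Uqcc2, and 27 after the removal (median 0.120). Over the 10806 genes outside the set, the median was -0.014 and 5246 were positive, without that removal. The share over all genes after the removal is not given here, so the counts after it have no background.

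Of 20 regulators of mitochondrial biogenesis, 11 had a positive r with the subunit mean (median 0.0075), and 9 after removal of the length and GC slopes (median -0.104). Slirp, which binds mitochondrial mRNA, was highest (0.605) and its partner Lrpprc stood at 0.319. Yy1 was lowest at -0.463, followed by Twnk, the mitochondrial DNA helicase, at -0.356. Nrf1 stood at 0.126, Gabpa at -0.137, Esrra at 0.225, Tfam, the mitochondrial DNA packaging factor, at 0.148, and Ppargc1b at 0.074. In edgeR's sex test, Pdha1, an X-linked pyruvate dehydrogenase gene, was higher in females (log2 difference -0.053, SE 0.014, adjusted p = 0.014). It was the only call among the 17 genes of the TCA cycle list. Of the 17, 10 had an unadjusted p under 0.05 (all genes 20%). The test called 0 of 20 regulators (2 at an unadjusted p under 0.05), 0 of 43 assembly factors outside the set (5) and 0 of 15 electron carrier genes (5).

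Each gene was then tested against scores of other gene lists (mean z score of the list, in SD units) with limma, with plate and sex as covariates. Slopes are log2 changes per SD of the score, with p adjusted over all genes outside the list. Against the mitochondrial ribosome score (77 genes), 70 of the 87 genes rose and 7 fell, in a background of 34.5% rising and 35.7% falling. Against the TCA cycle score, 66 rose and 8 fell (background 34.6% and 35.3%). Ndufa4 had the steepest positive slope on both (0.19, SE 0.011, and 0.19, SE 0.010), followed by Ndufa12 (0.15, SE 0.016) on the former and Ndufb6 (0.15, SE 0.011) on the latter. Cox4i2 (-0.23, SE 0.041, and -0.25, SE 0.040) and Cox6a2 (-0.21, SE 0.032, and -0.18, SE 0.033) had the steepest negative ones.

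Against the DNA replication score, 57 rose and 15 fell (background 36.5% and 37%), from 0.18 (SE 0.012) for Ndufa4 and 0.14 (SE 0.0070) for Atp5b to -0.26 (SE 0.039) for Cox4i2 and -0.24 (SE 0.030) for Cox6a2. Against the cholesterol biosynthesis score, 51 rose and 11 fell (background 31% and 30.2%), from 0.12 (SE 0.017) for Ndufa4 and 0.11 (SE 0.012) for Uqcrq, a complex III subunit, to -0.16 (SE 0.043) for Cox4i2 and -0.14 (SE 0.020) for Ndufa6. Against the granulocyte precursor score, 10 rose and 51 fell (background 27.6% and 30.5%), from 0.33 (SE 0.035) for Cox4i2 and 0.18 (SE 0.033) for Cox6a2 to -0.11 (SE 0.014) for Ndufb6 and -0.096 (SE 0.018) for Ndufa4. With 5 principal components of the other genes as covariates, none of the 87 rose with the DNA replication, cholesterol or granulocyte precursor score, and 20, 26 and 0 fell (at an unadjusted p under 0.05, 1, 0 and 0 rose and 30, 40 and 6 fell). Over all genes in that fit, 16.2% rose and 12.3% fell with DNA replication, 10.8% and 8.78% with cholesterol biosynthesis, and 4.42% and 2.66% with granulocyte precursors, so few genes of any kind were called for the last.

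Against the cytosolic ribosome score (84 genes), 28 rose and 27 fell, shares close to those of all genes (background 31.5% and 33.4%). Cox4i2 (0.34, SE 0.035), Ndufa6 (0.22, SE 0.014), Cox6a2 (0.21, SE 0.032) and Cox7a2l (0.20, SE 0.014) rose, whereas Ndufa4 (-0.088, SE 0.018), Atp5b (-0.082, SE 0.012), Sdha (-0.072, SE 0.0083) and Ndufb6 (-0.069, SE 0.016) fell. The balance depended on the covariates. With 5 principal components, 65 genes rose and 0 fell (68 and 1 at an unadjusted p under 0.05) in a background of 16.3% and 18.8%, and Ndufa4 had a slope of 0.073. With each library's slopes on length and GC content instead, 17 rose and 49 fell (background 35.7% and 37.4%). Ndufa6 and Cox7a2l also rose with the components (0.11 and 0.081), whereas Cox4i2 then had -0.0056 and Cox6a2 -0.091, neither past the threshold. Of the single partners, Cox7a2l was closest to the translation initiation factor gene Eif4b (Pearson r 0.917), Uqcrh to Rps15a (0.867), and Ndufb11 and Ndufa7 to Rps15 (0.807 and 0.791).

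**Figure D5:**
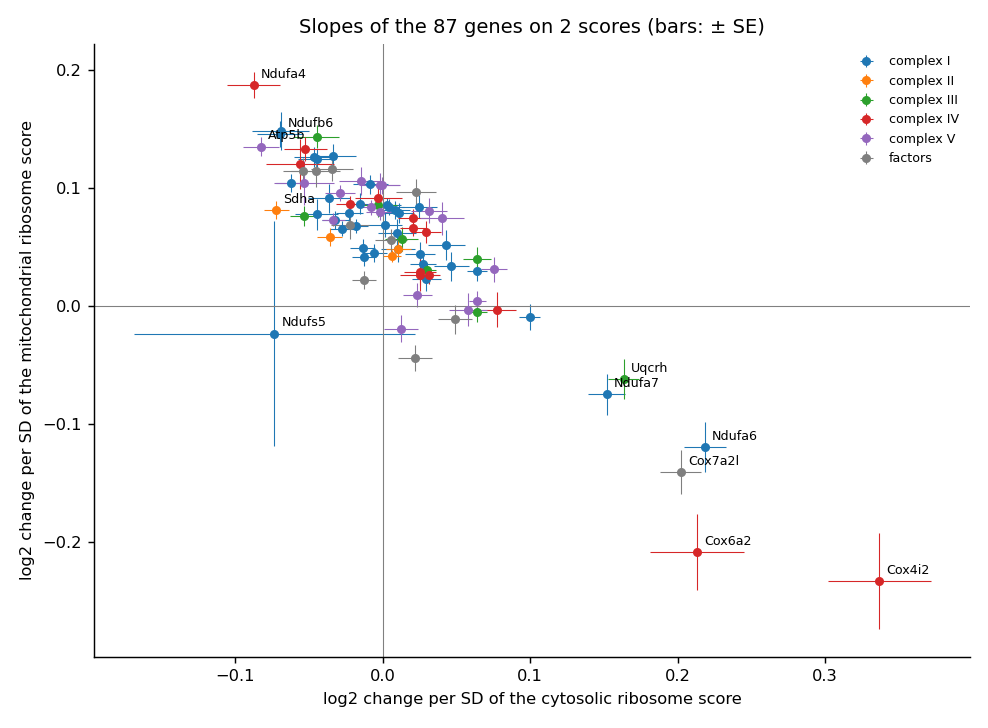
Slope of each of the 87 genes on the cytosolic ribosome score (horizontal) and the mitochondrial ribosome score (vertical), in log2 units per SD of the score; bars are ± SE and colours show the complex. Most genes lie above 0 on the vertical axis, and Uqcrh, Ndufa7, Ndufa6, Cox7a2l, Cox6a2 and Cox4i2 lie at the lower right.

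Against the glycolysis and hypoxia score (20 genes), 12 rose and 21 fell, the latter a share of 24.1% in a background of 23.8% (rising, 13.8% in 21.1%). With length and GC slopes as covariates the falling genes became 51 (background 26.5%) and the rising ones 10 (24%). With 5 principal components 23 fell and 3 rose (background 9.82% and 9.64%). Cox4i2 had the steepest rise (0.32, SE 0.036), followed by Cox6a2 (0.17, SE 0.033), Ndufa6 (0.099, SE 0.022) and Cox7a2l (0.093, SE 0.021). Ndufa4 (-0.087, SE 0.018), Ndufb6 (-0.085, SE 0.015), the assembly factor gene Ndufaf4 (-0.079, SE 0.011) and Cox5a (-0.075, SE 0.014), a core-binding subunit of complex IV, fell most. Cox4i2 kept a positive slope with 5 principal components as covariates (0.13, limma adjusted p = 0.0014).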

How the data were processed

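RNA-seq counts per gene and log2 variance-stabilised values were deposited by the authors. Per the submitters' processing notes, the tools were FastQC, TopHat2 2.0.11, HTSeq 0.6.1 and DESeq2, on GRCm38 (mm10); per the labels' protocols, libraries were poly-A selected (TruSeq) and read as 100-base pairs, 6 to a lane. The annotation release and counting strand are not given in the sources used here. Gene names came from GENCODE M21 (21822 of 22721 IDs).

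The genes and lists were chosen with earlier results of these data known. Counts were tested with edgeR 4.0.16 (filterByExpr by sex, TMM, quasi-likelihood, plate as covariate), with DESeq2 1.42.0 and limma voom as alternatives, and scores with limma 3.58.1 on the variance-stabilised log2 values, with Benjamini-Hochberg adjustment at 0.05. The ribosome list left out Rps6k kinases and Rps19bp1. The planned mtDNA score could not be formed from values of 0, and the mitochondrial ribosome and TCA cycle scores were added after seeing the data. Correlations are Spearman or Pearson on residuals after plate and sex. Levels are CPM (or CPM per kb of the principal GENCODE mRNA). Named genes were the extremes of level, spread and rho per role, all genes past the sex threshold, X-linked genes, the 6 smallest plate p-values, up to 4 per direction per score, and 12 partners per direction; the genes in separate levels were chosen after their values were seen. The edgeR and limma steps were tested on simulated data. Replicates are single mice; replicate numbers are only names. Values of 1 gene of the set are not reported here, though it is in the counts and medians.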

Additional observations from a re-analysis of the deposited data

How the results depend on the processing

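No paired analysis was possible because replicate numbers only name mice and pair no female with a male. The count of genes differing by sex (3) was 10 with lane within plate as covariate (all genes 7.86%, from 5.02%). Without the libraries that go against their label it was 8 (7.69%). With limma voom it was 5 (718 of all 12060 genes), and with DESeq2 also 5 (706 of 12060). The count differing by plate (81) was 15 with collection date as a further covariate (all genes 11%, from 74.8%), though most date labels occur on a single plate. The median rho among the genes (0.239) moved beyond the SD of the within-plate medians (0.076) only when slopes on length and GC content were removed (0.132). With 5 principal components of the other genes removed it fell to 0.168, just inside that limit. With 5 principal components of the other genes as covariates, rising and falling counts became 65 and 0 for the cytosolic ribosome score (all genes 16.3% and 18.8%) and 3 rising for glycolysis and hypoxia (9.64%). They became 0 rising for DNA replication (16.2%), 0 and 0 for granulocyte precursors (4.42% and 2.66%), 0 and 26 for cholesterol (10.8% and 8.78%), and 0 falling for the mitochondrial ribosome (20.3%) and TCA cycle (8.08%) scores. With length and GC slopes as covariates, they became 17 and 49 for the cytosolic ribosome (all genes 35.7% and 37.4%), and 51 falling for glycolysis and hypoxia (26.5%), 17 for cholesterol (30.8%), 14 for the mitochondrial ribosome (37.8%) and 15 for the TCA cycle (37.2%). With collection date in place of plate, 17 fell with the cytosolic ribosome (31.3%) and 12 with glycolysis and hypoxia (18.8%). With log2 CPM in place of variance-stabilised values, 13 fell with glycolysis and hypoxia (18%), 9 with DNA replication (28.9%) and 7 with cholesterol (23.5%). The other 50 of 77 counts and medians stayed within their limits.

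Slopes of named genes were compared in 144 refits, 36 in each alternative setting. In every setting but the principal components, all 36 kept their sign and stayed past the threshold. With 5 principal components as covariates, only 11 did so, and 10 kept their sign but lost the threshold. The other 15 changed sign. These were, for the cytosolic ribosome score, Cox4i2 (-0.0056), Cox6a2 (-0.091), Ndufa4 (0.073), Atp5b (0.030), Sdha (0.015) and Ndufb6 (0.098); for glycolysis and hypoxia, Ndufa6 (-0.025) and Cox7a2l (-0.021); for DNA replication, Ndufa4 (-0.037), Atp5b (-0.028), Cox4i2 (0.12) and Cox6a2 (0.16); for granulocyte precursors Ndufa4 (0.015), for cholesterol Ndufa4 (-0.0090) and for the TCA cycle Cox6a2 (0.086). The cause of these changes was not tested. The alternatives for the mtDNA score could not be run. Genes with few counts, such as Atp5g2 at 0.587 to 1.72 CPM, are limited by depth, and genes with repeated sequence by how reads were assigned.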

Other observations

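Single closest partners, by absolute Pearson r over 146 libraries after removal of plate and sex, lay inside the set for 22 of the 87 genes and outside it for 65. The set makes up 87 of the 10893 genes of the table. Partner counts were not made for other genes, so those in this paragraph have no further background. Those outside included proteasome genes: Psmc3 for Atp5b (0.938) and Ndufa11 (0.844), Psmd2 for Sdha (0.887), Psmd13 for Ndufa9 (0.882) and Psmb4 for Ndufa2 (0.829). Over all 39 proteasome subunit genes the median r with the subunit mean was 0.551, and 38 were positive. For the 10806 genes outside the set these values were -0.014 and 5246. Ndufa4 was closest to Idh3a of the TCA cycle (0.878), Cox5a and Ndufb6 to the nucleotide kinase gene Nme1 (0.839 and 0.857), and Uqcrq to the import factor gene Timm13 (0.833). Mitochondrial ribosomal protein genes were closest for 4 genes and cytosolic ones for 7. Only 2 genes had a closest partner starting within 1000 kb: Cox7b, described above, and Atp5o, a stalk subunit of ATP synthase, with Gart (0.674, 304 kb).

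The mean of the 8 macrophage markers had a Pearson r of -0.0063 with the subunit mean (n = 146; -0.322 to 0.280 within plates), and that of 11 granulocyte precursor genes -0.310 (-0.699 to 0.076 within plates). That of 19 interferon response genes had 0.074 (-0.420 to 0.387), and log2 library total had 0.073 (-0.174 to 0.314).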
